A study of Mus musculus with 24 samples.

Results

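miR-92b is a microRNA (miRNA), a short RNA that guides the silencing complex to messenger RNAs. It was chosen by name, as the entry mir-92b among the 510 miRNAs listed in the count table (1 of 510), because it stood high among the miRNAs over-expressed in tumor in these same libraries. Of the listed miRNAs, 364 had at least 1 count, and 237 passed the filter of edgeR on low counts and were tested. The tumor-normal difference of miR-92b was therefore known before it was chosen, and it is given below as a description, without a test.

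Mammary tumors of PyMT mice were compared with normal mammary glands of age-matched FVB females, with 3 mice of each genotype at weeks 6, 8, 10 and 12, which gave 12 tumor and 12 normal libraries of small RNA. The PyMT mice were females of FVB strain, heterozygous for the MMTV-PyMT transgene. In this transgene the promoter of mouse mammary tumor virus drives the polyoma middle T oncoprotein, mainly in mammary epithelium. The normal mice were FVB homozygotes without it. The tumor samples of the successive weeks stood for hyperplasia, then adenoma or mammary intraepithelial neoplasia, then early and finally late carcinoma, the last with metastasis to the lung. Whole frozen tissue was used, and according to the study's methods the hyperplasia and adenoma samples still held normal gland cells. From stained sections, the study described its carcinoma samples as mostly tumor cells, with few stromal, muscle and inflammatory cells. Each library was made from the tissue of 1 mouse, so the spread between replicates is that between mice.

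A miRNA recognises its targets mainly through its seed, bases 2 to 8 of the mature strand, and miRNAs with the same seed form a family with overlapping predicted targets. miR-92b shares its seed with miR-92a, miR-25, miR-32, miR-363 and miR-367. miR-92a is made from the miR-17-92 cluster, an oncogenic miRNA cluster, and from its X-linked copy, and miR-25 from a cluster inside the Mcm7 gene. miR-92b is made from a hairpin of its own and is best known from embryonic stem cells and neural progenitors.

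The mature sequences of the family are shown to make plain how close miR-92b is to its relatives. They are the strands that carry the common seed, 5′ to 3′, from RefSeq (GRCm38.p6), which held an entry for all 6 members, and the capitals mark the seed.
miR-92b-3p: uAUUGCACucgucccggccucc
miR-92a-3p: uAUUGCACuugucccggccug
miR-25-3p: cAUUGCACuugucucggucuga
miR-32-5p: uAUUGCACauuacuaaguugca
miR-363-3p: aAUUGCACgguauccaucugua
miR-367-3p: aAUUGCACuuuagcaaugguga

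Counted from the 5′ end, the 21 bases of miR-92a-3p differed from miR-92b-3p at 2 positions, C10U and C21G, where the base of miR-92b stands first. The other 19 bases were identical, and the longest run without a difference was 10 bases. miR-25-3p differed from it at 6 of 22 positions, miR-32-5p at 11, and miR-363-3p and miR-367-3p at 12 each. Reads of 17 bases or more from miR-92b and miR-92a therefore differ by as little as 1 base. How many mismatches the alignment allowed is not given in the sources used here, so reads passed from the abundant miR-92a to miR-92b cannot be told apart from reads of miR-92b. G and C made up 63.6% of miR-92b-3p, against a median of 52.2% over 1679 mature mouse sequences, of which 17.6% had as high a share or a higher one.

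The count table names miRNAs without their arm, so both strands of the hairpin could add to the miR-92b count. The hairpin of 83 bases lies on the minus strand of chromosome 3, at chr3:89031038-89031120 in mm9, the build named by the labels. The sequence there was identical to the RefSeq hairpin, and chromosome 3 held 1 exact copy of the mature sequence. In the mm9 annotation the hairpin overlapped no other gene. The nearest one was Mtx1, a component of mitochondrial protein import on the same strand, 27 bases away. Thbs3, a thrombospondin, lay 278 bases away and Muc1, an epithelial mucin, 1858 bases away, both on the other strand. In the RefSeq hairpin below, shown to place both arms, capitals mark miR-92b-5p (bases 11 to 34) and miR-92b-3p (bases 52 to 73).
Mir92b hairpin: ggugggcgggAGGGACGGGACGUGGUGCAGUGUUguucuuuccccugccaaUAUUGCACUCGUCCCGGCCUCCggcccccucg

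Total counts lay between 1626022 and 3931375 for normal glands, and between 1032241 and 2213972 for tumors. miR-92b had 130 to 526 counts in the normal and 1053 to 2718 counts in the tumor libraries, all far above 3 counts. Levels below are CPM (counts scaled to the library size) after TMM normalization, the scaling of edgeR that sets most miRNAs equal between libraries. Limits given from counts cover counting error only, because amplified reads are not independent molecules.

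miR-92b was higher in every tumor library than in every normal library. For how many other miRNAs this held over all weeks was not computed, and the shares for single weeks are given below. The highest normal library, at week 12, had 167.6 CPM and the lowest tumor library, at week 8, had 673.8 CPM, which is 4.02 times as much. Among the miRNAs of a library ordered by count, miR-92b took places 112 to 149 in normal libraries, with a median of 129, and places 61 to 77 in tumor libraries, with a median of 69. The samples are bulk tissue, so fewer or more cells that make miR-92b and less or more miR-92b per cell cannot be told apart.

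At week 6, the hyperplasia stage, miR-92b was at 77.9, 93.2 and 66.1 CPM in normal replicates 1 to 3, and at 998, 850 and 925 CPM in the tumor replicates. Both groups were narrow, with means of 79.1 ± 13.6 and 924 ± 74.2 CPM (SD, n = 3). The log2 fold change, tumor minus normal, was 3.55 (SE 0.22), an 11.7-fold difference and the second in size among the 237 tested miRNAs, ordered from the most over-expressed. The median log2 fold change over all tested miRNAs was -0.12.

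At week 8 the normal replicates were at 101.0, 142.0 and 74.6 CPM and the tumor replicates at 1202, 1501 and 674 CPM. The tumor group was the widest of the 4, since replicate 3 had the lowest level of all tumor libraries and replicate 2 the highest (mean 1126 ± 419 CPM, SD, n = 3). The log2 fold change was 3.38 (SE 0.39), or 10.4-fold, the third from the top.

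At week 10 the normal replicates were at 135.0, 91.4 and 92.6 CPM and the tumor replicates at 955, 1047 and 1097 CPM. The tumor replicates were again close to each other (1033 ± 72.1 CPM, SD, n = 3). The log2 fold change was 3.27 (SE 0.21), or 9.63-fold, the fourth from the top.

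At week 12, the stage of late carcinoma, the normal replicates were at 127.6, 57.8 and 167.6 CPM and the tumor replicates at 1066, 1046 and 1206 CPM. Here the normal group was the widest (117.7 ± 55.6 CPM, SD, n = 3), because it held both the lowest and the highest of the normal libraries. The log2 fold change was 3.20 (SE 0.42), or 9.18-fold, the fourth from the top.

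These values chose miR-92b, so no test is attached to them. For the background, 29.1%, 21.9%, 32.9% and 29.1% of the tested miRNAs were called higher in tumor at weeks 6, 8, 10 and 12 by edgeR's quasi-likelihood test at an adjusted p under 0.05. All tumor libraries were above all normal libraries of the week for 34.2%, 32.1%, 36.3% and 33.3% of them, and the genotypes did not overlap in either direction for 68.8%, 51.9%, 67.9% and 62.0%.

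**Figure D1:**
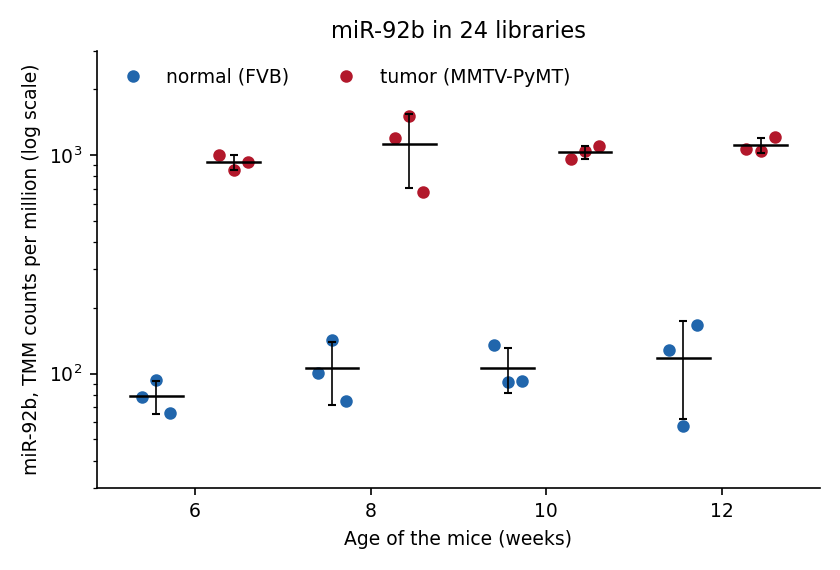
Level of miR-92b in TMM-normalized CPM, on a log axis, against the age of the mice in weeks. Each point is 1 library of a normal gland (blue) or a tumor (red), bars are means and whiskers 1 SD (n = 3); the lowest tumor library, at 673.8, stands above the highest normal one, at 167.6.

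Each group had libraries on both sequencing lanes, with 6 tumor and 6 normal libraries on each. The mean log2 level of tumor minus normal was 3.28 on lane 1 and 3.50 on lane 2, against 3.39 over both lanes. The difference was thus of about the same size within each lane.

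The next question was whether miR-92b moved with age or stage within a genotype, which the choice of miR-92b did not use. No change between weeks passed the test. In order of their means, the groups were normal weeks 6, 8, 10 and 12, and then tumor weeks 6, 10, 12 and 8, and the libraries of each neighbouring pair of groups overlapped, apart from the step between normal week 12 and tumor week 6.

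In tumor, week 12 minus week 6 gave a log2 fold change of 0.26 (SE 0.32, 95% interval -0.40 to 0.92), with an adjusted p of 0.605 in edgeR's quasi-likelihood test over all miRNAs, where 7.59% of the tested miRNAs were called. By the size of this change miR-92b was at place 156 of 237. A test of any difference among the 4 weeks in tumor gave an adjusted p of 0.937 for miR-92b. That test called 0 miRNAs in all, while 39 had an unadjusted p under 0.05.

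In normal glands, week 12 minus week 6 gave 0.57 (SE 0.32, 95% interval -0.095 to 1.24) on the log2 scale, with an unadjusted p of 0.0887 and an adjusted p of 0.224, where edgeR called 21.1% of the tested miRNAs. The test of any difference among weeks in normal glands gave an adjusted p of 0.635, and 13.9% of the miRNAs were called. The comparison of weeks 12 and 6 turned on 1 library. Without normal week 12 replicate 2, the one at 57.8 CPM, the log2 fold change was 1.13 with an adjusted p of 0.0070, and the test of any week gave 0.0434. Without normal week 12 replicate 3, the one at 167.6 CPM, it was 0.25 with an adjusted p of 0.737. With library sizes only, in place of TMM, it was 0.22.

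From week 6 to week 12 the tumor-normal difference itself changed by -0.32 on the log2 scale (SE 0.45, 95% interval -1.25 to 0.62, adjusted p = 0.658 by edgeR), in a contrast that called 0.422% of the tested miRNAs. Its sign depended on the scaling and on 1 library. It was 0.039 with library sizes only and 0.056 without normal week 12 replicate 3. A test of any change of the tumor-normal difference among weeks gave an adjusted p of 0.971, with 0 miRNAs called and 9 at an unadjusted p under 0.05. The interval still allows a moderate rise or fall, so a constant difference was not shown.

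Within groups, miR-92b varied about as much as a typical miRNA. The SD of its log2 level within the week groups was 0.313 in tumors, against a median of 0.314 over the tested miRNAs, and 0.499 in normal glands, against a median of 0.399. Ordered from the widest, it was at place 120 of 237 in tumors and at place 82 in normal glands.

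The relatives with the same seed were compared next, and the family did not move as 1 block. miR-92a was over-expressed in tumor at all 4 time points, but less than miR-92b. miR-25 was called at week 10 only, and miR-32 at none. miR-363 and miR-367 were listed at 0 in all 24 libraries. Whether the counting could register them is not known, and 3 counts, the level that a count of 0 still allows if it could, are 0.712 to 3.53 CPM depending on the library.

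miR-92a was by far the most counted member of the family. It was at 18073 to 35081 CPM in normal glands, with a median of 28293, and at 54811 to 78841 CPM in tumors, with a median of 65458, so that the genotypes did not overlap. Its log2 fold changes were 1.30 (SE 0.22), 1.09 (SE 0.20), 1.22 (SE 0.13) and 1.25 (SE 0.29) at weeks 6, 8, 10 and 12. The adjusted p-values were 0.00296, 0.00705, 4.42e-04 and 0.0104 by edgeR's quasi-likelihood test.

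miR-25 was at 2346 to 3735 CPM in normal glands and at 3394 to 4589 CPM in tumors. At each week its 3 tumor libraries were above its 3 normal libraries, as were those of 32.1% to 36.3% of the tested miRNAs. Over all weeks the genotypes overlapped. Its log2 fold changes were 0.41, 0.20, 0.44 and 0.52, with adjusted p-values of 0.0618, 0.397, 0.0249 and 0.0667 in edgeR. The call at week 10 was lost without a filter on low counts (adjusted p = 0.0577 by edgeR) and in 5 of 6 fits that left out 1 library of that week. It remained only without tumor replicate 3 (0.0425) and reached 0.0954 without tumor replicate 2. Week 6 passed in 3 of 8 alternatives (lowest adjusted p 0.0195) and without normal replicate 3 (0.0301), and week 12 in 2 of 8 (lowest 0.00504).

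miR-32, a member from an intron on chromosome 4, was rare, with 10 to 59 counts in normal libraries and 4 to 20 in tumor libraries. Its log2 fold changes of -0.19, -0.72, -0.05 and -0.45 did not pass the test (edgeR adjusted p = 0.713, 0.142, 0.858 and 0.237). The 3 tumor libraries were below the 3 normal libraries at week 8 only.

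**Figure D2:**
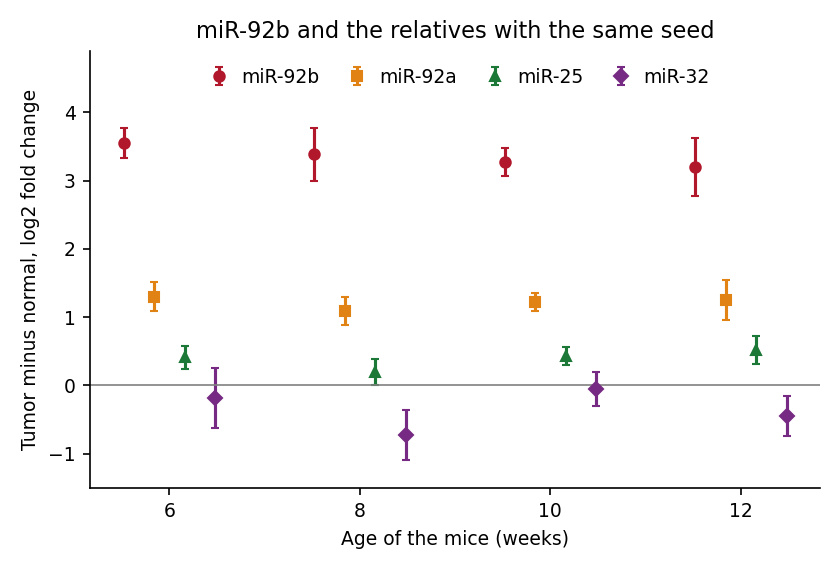
Log2 fold change, tumor minus normal, of miR-92b and 3 relatives with the same seed against the age of the mice in weeks, with whiskers of 1 SE from edgeR (3 tumor and 3 normal libraries at each week). miR-92b lies between 3.20 and 3.55, miR-92a between 1.09 and 1.30, miR-25 between 0.20 and 0.52, and miR-32 at or below -0.05.

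No relative changed between weeks 6 and 12 by edgeR. The adjusted p-values of this step were 0.800, 0.771 and 0.686 for miR-92a, miR-25 and miR-32 in tumor, and 0.745, 0.876 and 0.969 in normal glands.

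Because miR-92a and miR-92b differ at few bases, their ratio within a library, which no scaling between libraries touches, was also computed. Per 1000 counts of miR-92a there were 2.30 to 5.05 counts of miR-92b in the normal libraries (mean 3.63 ± 0.936, SD, n = 12) and 9.80 to 22.5 in the tumor libraries (16.04 ± 3.19, SD, n = 12). The ranges did not overlap. Because miR-92b was chosen for its high level in tumor, this separation follows in large part from that choice and is a description. For how many other miRNAs the ratio to miR-92a separates the genotypes was not computed. The lowest tumor ratio, 9.80, and the highest, 22.5, were both of week 8, in replicates 3 and 2. The part of reads passed from miR-92a in these ratios was not tested.

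**Figure D3:**
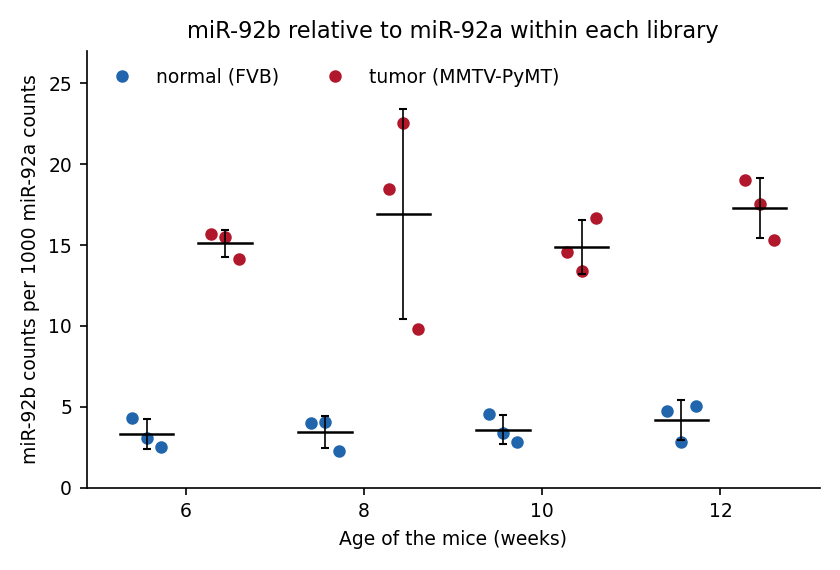
Counts of miR-92b per 1000 counts of miR-92a in each library, against the age of the mice in weeks, for normal glands (blue) and tumors (red), with bars for means and whiskers for 1 SD (n = 3). Normal libraries lie between 2.30 and 5.05 and tumor libraries between 9.80 and 22.5.

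miR-92b was a small part of the seed family in counts. It made up 0.206% to 0.461% of the family counts in normal libraries (median 0.330%) and 0.916% to 2.09% in tumor libraries (median 1.45%). miR-92a made up 88.2% to 91.3% in normal libraries and 91.4% to 93.5% in tumor libraries, and miR-25 had medians of 9.63% and 5.55%. The summed level of the family was 20502 to 38973 CPM in normal glands and 59689 to 84294 CPM in tumors, most of it miR-92a. Different miRNAs are ligated and amplified with unequal efficiency, so shares between members are shares of reads, not of molecules.

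Of the miRNAs matched to a hairpin close to miR-92b, only 1 could be tested, and it was not called at any week. Within 2 Mb on chromosome 3, 3 miRNAs of the table were matched by name to a hairpin in the mm9 annotation. Other miRNA genes annotated in this window had clone names and were not matched to the table. Their levels were therefore not compared with those of miR-92b. miR-1905 had 1 count over all libraries, and miR-720 had 43 counts over the normal and 38 over the tumor libraries, too few to be tested. miR-190b was tested, and its log2 fold changes of 0.58, 0.21, -0.30 and -0.60 had edgeR adjusted p-values between 0.216 and 0.709.

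The miRNAs with the profile most like that of miR-92b were found by the root mean square difference of their log2 levels over the 24 libraries, after each miRNA was centred on its own mean. Over the 236 other tested miRNAs this difference had a median of 1.86. The 5 closest were miR-31 (0.401), miR-146b (0.420), miR-466b (0.562), miR-200b (0.607) and miR-466c (0.627). Such a list follows from the large tumor-normal difference that they share with miR-92b, and it is a description.

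miR-31, which has been studied for its part in metastasis, had a median of 252 CPM in normal and 3064 CPM in tumor libraries, with log2 fold changes of 2.79, 3.83, 3.23 and 3.52 at the 4 time points. miR-146b, known for dampening NF-kB signalling, had medians of 3253 and 29819 CPM and log2 fold changes of 3.09, 3.37, 3.10 and 3.10. miR-200b, an epithelial miRNA that represses the Zeb factors, had medians of 2391 and 14206 CPM and log2 fold changes of 2.30, 2.42, 2.53 and 2.88. The miR-466 members were far lower, with tumor medians of 64.0 and 26.8 CPM. In TMM-normalized levels miR-92b, miR-31, miR-146b and miR-200b were highest in tumor week 8 replicate 2, and both miR-466 members in tumor week 12 replicate 3. With library sizes only, miR-92b was still highest in week 8 replicate 2, while the other 5 were highest in libraries of weeks 10 and 12.

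**Figure D4:**
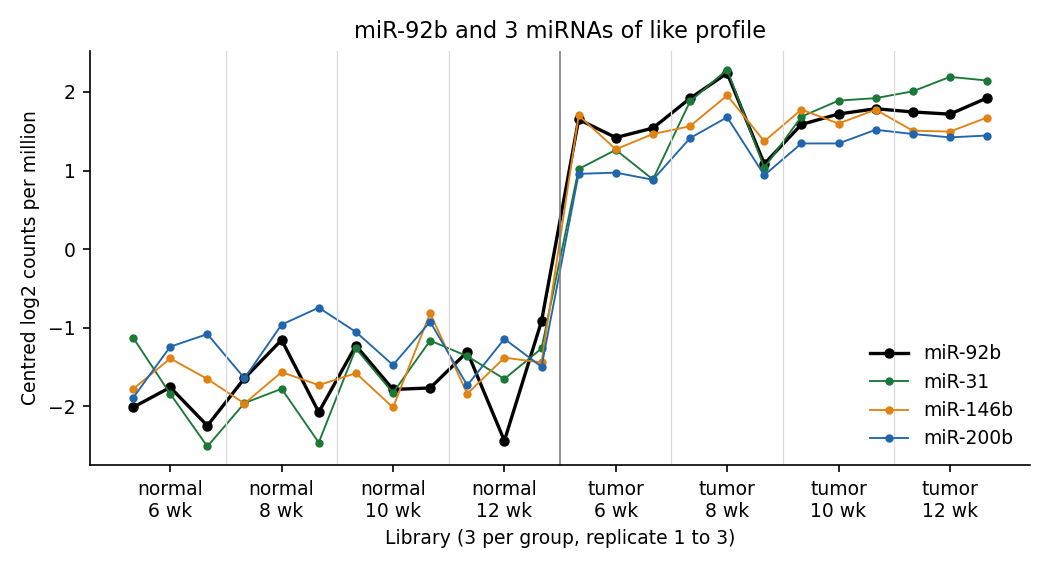
Log2 CPM of miR-92b, miR-31, miR-146b and miR-200b in 24 libraries, each centred on its own mean, with normal libraries on the left and tumor libraries on the right, in order of week and replicate. In all 4 miRNAs the highest library is tumor week 8 replicate 2 on this scale, which for miR-31, miR-146b and miR-200b does not hold with library sizes only.

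Of these 5 miRNAs, miR-31, miR-146b and miR-200b had entries in RefSeq (GRCm38.p6), and none of the 3 carried the seed of miR-92b on either arm. The 5p strands of the 2 closest are shown, with the seed in capitals, as a contrast with the family above. miR-466b and miR-466c were not matched.
miR-31-5p: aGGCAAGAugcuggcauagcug
miR-146b-5p: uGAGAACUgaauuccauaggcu

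Tumors and normal glands differ in their cells, and lists of miRNAs used as markers of cell types were set beside miR-92b. Whether each list is particular to its cell type was not tested. The epithelial list (the miR-200 family, the miR-183 cluster, miR-203, miR-205 and miR-375) was higher in tumor in 9 of 11 members at each week. Its median log2 fold change was 1.79, 2.15, 1.998 and 2.22, against -0.12, -0.089, -0.15 and -0.19 over all tested miRNAs. The highest member was miR-200b at each week, at 2.30, 2.42, 2.53 and 2.88, below the value of miR-92b. miR-205, a miRNA of basal epithelium, was not called at any week, and miR-203 was called once, lower in tumor at week 12 (log2 fold change -1.87, edgeR adjusted p = 0.0390).

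The stroma list (miR-143, miR-145, miR-199a, miR-199b and miR-214) was lower in tumor in 5 of 5 members at each week, with medians of -0.96, -1.16, -1.22 and -1.44. miR-126 of endothelium was lower at each week, from -0.67 to -1.57. Of the 3 erythroid miRNAs, 1, 0, 1 and 3 were lower at weeks 6, 8, 10 and 12. Of the 3 tested muscle miRNAs, 0, 1, 0 and 3 were lower, with medians of -2.02, -2.25, -1.67 and -6.19. Their summed level set 4 normal libraries apart, week 6 replicates 1 and 2, week 10 replicate 3 and week 12 replicate 1, which had 29086 to 89335 CPM against 89.0 to 2465 CPM in the other normal libraries and 39.9 to 18078 CPM in tumors. The highest and the lowest normal level of miR-92b, 167.6 and 57.8 CPM, were both in the other normal libraries. The same 4 libraries had the highest erythroid sums of the normal libraries, 22490 to 34554 CPM against 7797 to 20828 CPM. The erythroid list may thus not stand for blood alone, and which cells it follows was not tested. Of the 3 tested leukocyte miRNAs, 1 was lower in tumor at each week. Of the 3 fat cell miRNAs, 1 was higher in tumor at week 6 and 1 lower at each of weeks 10 and 12. miR-223, a myeloid miRNA of the leukocyte list, was listed at 0 in all 24 libraries. For comparison, calls in either direction made up 58.6%, 35.4%, 60.3% and 50.6% of the tested miRNAs. Of the 237 tested miRNAs, 70, 32, 65 and 51 were called lower in tumor at weeks 6, 8, 10 and 12, and 69, 52, 78 and 69 higher.

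The summed level of the epithelial list was 15360 to 30666 CPM in normal glands and 57182 to 98545 CPM in tumors. Per 1000 counts of the list there were 1.89 to 10.9 counts of miR-92b in normal libraries (mean 5.30 ± 2.49, SD, n = 12) and 9.67 to 16.7 in tumor libraries (14.3 ± 2.07, SD, n = 12). This ratio overlapped between the genotypes through 1 normal library, week 12 replicate 3 (10.9), and 1 tumor library, week 8 replicate 3 (9.67). The next highest normal library was at 8.00, so that without either of them the ranges did not overlap. As with the ratio to miR-92a, the higher ratio in tumors follows in large part from the choice of miR-92b and is a description. The part of a changed epithelial share in the level of miR-92b was not tested.

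Within a genotype, the log2 level of miR-92b was compared with the mean log2 level of 8 lists (7 cell types and the relatives with the same seed) over 12 libraries, which gave 16 relations. Of these, 2 passed an adjusted p of 0.05 in a permutation test of Pearson's r (two-sided, 100000 resamples), both in tumors. In tumors, miR-92b rose with the epithelial list (r = 0.77, permutation p = 0.00239, adjusted p = 0.0197). Spearman's rho was 0.63, with a permutation p of 0.0319 and an adjusted p of 0.170. Tumor week 8 replicate 2 had both the highest miR-92b, 1501 CPM, and the highest epithelial sum, 98545 CPM.

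In tumors miR-92b fell as the erythroid list rose (r = -0.78, permutation p = 0.00246, adjusted p = 0.0197; rho = -0.70, permutation p = 0.0143, adjusted p = 0.115). Tumor week 8 replicate 2 also had the lowest erythroid sum, 2060 CPM. The stroma list had r = -0.66 with an adjusted permutation p of 0.0971, and passed without tumor week 12 replicate 2 (0.0399) or tumor week 8 replicate 1 (0.0437). miR-126 had r = -0.64 with an adjusted permutation p of 0.125, and passed without tumor week 8 replicate 1 (0.0437). The family members with the same seed had r = -0.40 with 0.286. Their mean gives the rare miR-32 the same weight as miR-92a. Without tumor week 8 replicate 2, which had 4 counts of miR-32, this r was 0.00053.

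Both relations depended on the scaling and on few libraries. With library sizes only, r was 0.58 for the epithelial list (adjusted permutation p = 0.216) and -0.76 for the erythroid list (0.0944). Without the 2 libraries farthest from the median of the list, r was 0.68 for the epithelial and -0.56 for the erythroid list, each with an adjusted permutation p of 0.343. Without tumor week 8 replicate 2 they were 0.66 and -0.64, each with 0.281. Without tumor week 6 replicate 2 (0.0524 for both) or tumor week 8 replicate 3 (0.0520 for both) the adjusted permutation p also missed the threshold. As deviations from the mean of each week, r was larger in size, at 0.84 and -0.82, with adjusted permutation p of 0.0676 and 0.0669. These p-values are approximate, because the deviations were shuffled across weeks although they sum to 0 within a week and were widest at week 8.

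In normal glands the same relations had r = -0.42 for the epithelial and 0.43 for the erythroid list, each with an adjusted permutation p of 0.274. Normal week 12 replicate 2, with the lowest miR-92b, had the highest epithelial sum of the normal libraries, 30666 CPM, and normal week 12 replicate 3, with the highest miR-92b, had the lowest, 15360 CPM. The signs were opposite to those in tumors, but the difference between the genotypes was not tested. Shared library size, lane and composition enter both sides of each relation.

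**Figure D5:**
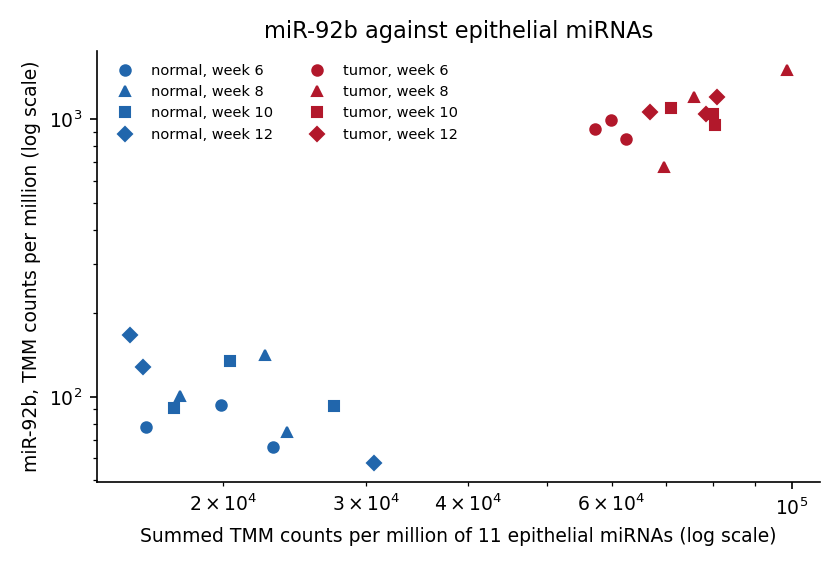
Level of miR-92b against the summed level of 11 epithelial miRNAs, both in TMM-normalized CPM on log axes, for each library, with the color giving the genotype and the symbol the week. In tumors (red) r was 0.77 over 12 libraries and in normal glands (blue) -0.42, on the log2 scale with the mean of the list.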

How the data were processed

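Small RNA from mammary tissue of 24 mice was sequenced, 3 per genotype and week. The authors removed barcode and adaptor, aligned reads of 17 to 27 bases with Bowtie (version not given in the sources used here), counted reads that covered over 50% of a miRBase miRNA, and deposited these counts without normalization. The paper names mm10 and the labels mm9.

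The deposited counts were tested with edgeR 4.0.16 in R 4.3.3: TMM, quasi-likelihood fit and Benjamini-Hochberg adjustment over the 237 miRNAs kept by filterByExpr, with a threshold of 0.05. Tumor and normal libraries were compared week by week, and weeks in a fit of all 24 libraries. The SE is the size of the log2 fold change divided by the square root of F. Log2 levels used a prior count of 2. Correlations used permutation tests with 100000 resamples in scipy 1.17.1, adjusted over 16 relations. Sequences are from RefSeq (GRCm38.p6) and positions from mm9.

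miR-92b, its lists and the tests were chosen with earlier results of these data known. Named miRNAs are miR-92b, its seed family, the 5 closest in profile, and those matched by name to a hairpin within 2 Mb. Members of the cell type lists, and single libraries, were named after their values were seen. The alternatives were DESeq2 1.42.0 size factors and tests, library sizes only, other filters, lane, a replicate block, a single fit, and each library left out. The procedure was tested on simulated data, where most changes of 1 on the log2 scale were not called. The limit for passing this check was lowered after its first run. No 2 replicates agreed within sampling noise. Messenger RNA and predicted targets were not used here.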

Additional observations from a re-analysis of the deposited data

How the results depend on the processing

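The log2 fold change of miR-92b between tumor and normal stayed between 3.16 and 3.62 over the 4 weeks and 8 alternatives, where it moved by less than the SD between replicates. With each library left out in turn its lowest and highest values were 3.43 and 3.69 (week 6), 3.15 and 3.72 (week 8), 3.08 and 3.47 (week 10), and 2.85 and 3.55 (week 12). Those of the change between weeks 6 and 12 were 0.258 and 0.360 in tumor, 0.252 and 1.13 in normal glands, and -0.802 and 0.0565 for the tumor-normal difference. Those of the step from week 8 to week 10 were -0.37 and 0.21 in tumor and -0.19 and 0.26 in normal glands, those of the step from week 10 to week 12 in normal glands -0.23 and 0.61. The adjusted p for any week lay between 0.750 and 0.996 in tumor, 0.0434 and 0.851 in normal glands, and 0.653 and 0.994 for the difference.

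With library sizes only, the change of the tumor-normal difference turned to 0.039 and the step from week 8 to week 10 to 0.0089 in tumor and -0.042 in normal glands, and that from week 10 to 12 in normal glands to -0.10. With lane as a covariate the step from week 8 to 10 in tumor was 0.032. None of these changes passed the test in any alternative run, and the cause was not tested. Between 4 and 7 of the tests of miR-92a, miR-25 and miR-32 passed the threshold over the alternatives, and between 4 and 6 with a library left out, against 5 as reported. miR-32 lay between -0.52 and 0.10 at week 6 and between -0.24 and 0.029 at week 10 with a library left out. With at least 10 counts in every library miR-32 was not tested.

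In tumors, r with the epithelial list was 0.58 with library sizes only (adjusted permutation p = 0.216), 0.68 without the 2 farthest libraries and 0.84 as deviations from the week means. For the erythroid list these were -0.76 (adjusted permutation p = 0.0944), -0.56 and -0.82. With a library left out they lay between 0.661 and 0.841 and between -0.851 and -0.636. Relations that were not called and turned in sign were those with the seed family without the 2 farthest libraries (0.14 in tumor and -0.055 in normal), with muscle as deviations (0.20 and 0.025), with fat cells in tumor without the 2 farthest (0.23) and in normal with library sizes only (-0.0039). With a library left out, r also turned for the seed family in tumor (-0.48 to 0.00053) and for muscle in tumor (-0.50 to 0.071) and in normal glands (-0.22 to 0.030).

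Replicate numbers were also used as a block. Same-numbered libraries of a week had correlated deviations from their group means (mean r 0.41, range 0.031 to 0.82, against -0.18 for different numbers, which follows in part from centring). This r was over 0.1 in 10 of 12 pairs, the exceptions being replicates 1 and 3 of week 12, and the deviations of miR-92b had the same sign in 4 of 12. The labels give no shared animal or litter, but same-numbered libraries of a week were on the same sequencing lane. Because not every pair passed 0.1, the numbers were not taken as a pairing. This limit does not show that the libraries were independent, and shared processing was not tested. With the replicate block the log2 fold changes of miR-92b were 3.56, 3.35, 3.29 and 3.34, and 5 tests of the relatives passed, as without it. The 3 mice per group limit the precision.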
